A study of Carica papaya with 55 samples.

Results

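Stamens and pistillodes from small male flower buds of papaya (Carica papaya) were compared for the expression of genes on the X and Y chromosomes. There were 3 stamen libraries set against 3 pistillode libraries, out of 55 libraries in all. The libraries were chosen by their labels alone: genotype 'AU9', male, flower buds of 1 to 1.5 mm (stage S1), before meiosis. The pistillode is the aborted pistil of the male flower. Both organs come from plants that carry 1 X and 1 Y chromosome, so the comparison asks which sex-linked genes differ between male organs of the same chromosome content, at the earliest stage at which the organs were dissected. The wider series was collected to follow alleles of CpMDAR4 through female and male flowers. No feature in the tables carries that name, and it was not analysed here.

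The other groups of 'AU9' used below for context were male stamens at S2 to S5 (3 libraries each), male pistillodes at S2 and S3 (2 each) and at S4 and S5 (3 each), pollen (3), pistils of female buds at S1 (3) and whole male buds under 1 mm, called S0 (3). Buds measured 2 to 4.5 mm at S2, 4.5 to 6.5 mm at S3, 7 to 12 mm at S4 and 15 to 20 mm at S5. Nothing in the labels tells whether the replicates are separate plants or how many buds were pooled. The p-values therefore measure the spread between libraries, which may be technical. In the main test of features, 1 spread per feature was estimated over the replicates of all 19 groups of the series. Its p-values and SEs thus also carry spread from outside the groups compared. RNA was taken from whole organs: in bulk samples fewer cells of a type and less RNA per cell cannot be told apart.

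In papaya, sex is set by an XY pair that is young compared with those of mammals. The Y of males differs from the X over a male-specific region (the suffix MSY in the feature names), where recombination with the X has stopped and many genes still have a partner on the X. Male flowers start a pistil that stops developing and remains as a sterile rod, while the stamens go on to form anthers and pollen.

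Fragments had been counted over 193 features, all sex-linked: 97 on the X and 96 on the Y, with 69 X and Y pairs. The tables pair no feature with a gene function, none of the 193 names matched the reference list of 48816 papaya genes, and 0 of 17 stamen, pistil and ovule marker genes was named. The organ labels could therefore not be checked against marker genes, and roles are not given for single features. A check of sex could be made: CpY19_MSY had 148 to 880 counts in each male library and 0 to 1 in each female library of the series.

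The 3 stamen libraries held 93115, 70906 and 56367 counts, and the 3 pistillode libraries 48874, 54644 and 61353 counts. Totals over all 55 libraries ran from 21475 to 106846. These are totals of sex-linked features, not sequencing depth. Levels are given in CPM, counts brought to a common scaled total of sex-linked counts per library, so they compare a feature between libraries and are not a share of all RNA. Of the 193 features, 17 had no counts in the 6 libraries and 86 had over 1000. No pair of libraries held identical values. Replicates of 1 organ differed by a chi-square of 5.10 to 7.01 per degree of freedom and libraries of different organs by 15.7 to 26.0, so by this measure the organs were farther apart than the replicates in every pair. By the correlation of log2(CPM + 0.5) across features this did not hold for every pair: it was 0.950 between pistillode replicates 1 and 3, and 0.951 and 0.952 between pistillode replicate 3 and stamen replicates 1 and 2.

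Fragments that map to several places had been counted at each place, so reads of an X copy can also appear at its Y copy. Females have no Y and show where this happens. In 21 pairs, called separate, less than 5% of the pair's counts in females fell on the Y copy. In 10 pairs it was 5 to 25% (partly shared), in 26 over 25% (shared), and 12 pairs had under 100 female counts and were not classed. The copies of a shared pair are not independent measurements, and which chromosome their transcripts came from cannot be told apart here.

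Few sex-linked features passed the main test between the organs at S1, and those that did not pass are not shown to be equal. Of the 139 features that passed the filter on low counts, 14 (10.1%) differed with an adjusted p under 0.05 in edgeR's quasi-likelihood test with Benjamini-Hochberg adjustment: 8 (5.76%) were higher in stamens and 6 (4.32%) were lower. The test was two-sided, and 25 features had an unadjusted p under 0.05. The median log2 difference, stamen minus pistillode, was 0.05 (quartiles -0.21 and 0.27), and 110 features lay within 1.5-fold. The libraries of the organs did not overlap for 26 features higher in stamens (18.7%) and 15 lower in stamens (10.8%), among them all 14 that passed. The other 54 features were too low to test.

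When the 6 libraries were fitted alone, 39 of 119 features passed (23 higher and 16 lower in stamens), and 38 passed (22 higher and 16 lower) with the replicate number as a block. Both counts include all 14. Among the features named below that did not pass, 12 passed in the fit of the 6 libraries with the block. In the fit of the 6 libraries without the block it was also 12, so these calls do not rest on the block. Values given below as under the replicate block are from the fit of the 6 libraries with it. When copies of shared and partly shared pairs were left out before scaling and fitting, 2 of 65 features passed, CpXY31_MSY and CpY17_MSY.

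**Figure D1:**
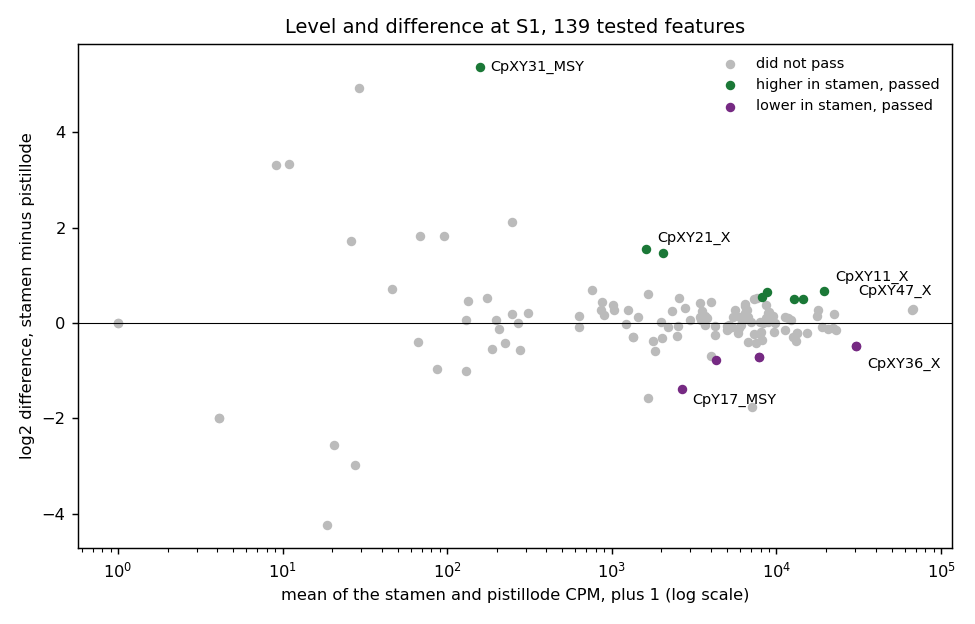
Each point is 1 of the 139 tested features, with the mean of the stamen and pistillode CPM, plus 1, on a log axis across and the log2 difference, stamen minus pistillode, upwards; features that passed are green (8 higher in stamens) or purple (6 lower), and 6 are named. Most features lie close to 0, and apart from PCpY4_MSY and PCpY10_MSY the larger differences of the grey points are among features with few counts.

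The largest difference was that of the CpXY31 pair, a separate pair of single-exon features of 618 bases each. The Y copy CpXY31_MSY (Y, 6950261 to 6950878, plus strand) had 35, 26 and 13 counts in the stamen libraries, against 1, 0 and 0 counts in the pistillode libraries. That is 369, 360 and 192 CPM in stamens, against 18.5, 0 and 0 CPM in pistillodes. The ratio of the summed counts was 56.7, with a 95% exact counting interval of 9.86 to 2268 that covers counting error only. The log2 difference was 5.37 (SE 1.36, adjusted p = 0.00864). It rests on 1 pistillode count, and the call was lost when pistillode replicate 2 or 3 was left out and with DESeq2 (highest adjusted p = 0.0593).

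The X copy CpXY31_X (X, 4739152 to 4739769) had 5, 3 and 5 counts in stamens and 0 in each pistillode library. With 3 counts over the pistillode group as the floor that a count of 0 allows, it was at least 3.32-fold higher in stamens. It did not pass (adjusted p = 0.0725). In female S1 pistils, which carry no Y, CpXY31_X was at 715 ± 207 CPM (SD, n = 3) and CpXY31_MSY had no counts. Male S0 buds held similar levels of the copies, 225 ± 25.8 CPM of CpXY31_X and 231 ± 104 CPM of CpXY31_MSY. The bud libraries lie in another processing folder than the organ libraries, per the file headers, so bud levels are given for description only.

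Both copies of CpXY21, a partly shared pair with 13 exons in each copy, were higher in stamens. CpXY21_X (X, 4319560 to 4334142) was at 2612, 2407 and 2234 CPM in stamens, against 869, 749 and 853 CPM in pistillodes. Every stamen library was above every pistillode library, by 2.93-fold on average, with a log2 difference of 1.55 (SE 0.34, adjusted p = 0.00172).

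CpXY21_MSY (Y, 4890412 to 4904966) was at 2885, 3071 and 3032 CPM in stamens, against 887, 1548 and 807 CPM in pistillodes. The stamen libraries were close to each other and pistillode replicate 2 was the highest of its group without reaching them. The log2 difference was 1.47 (SE 0.38, adjusted p = 0.00671). The call was lost without pistillode replicate 1 or 3 (highest adjusted p = 0.0645). Female S1 pistils held 2593 ± 85.9 CPM of CpXY21_X and 266 ± 117 CPM of CpXY21_MSY (n = 3), so part of the counts at the Y copy can come from sequences outside the Y.

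**Figure D2:**
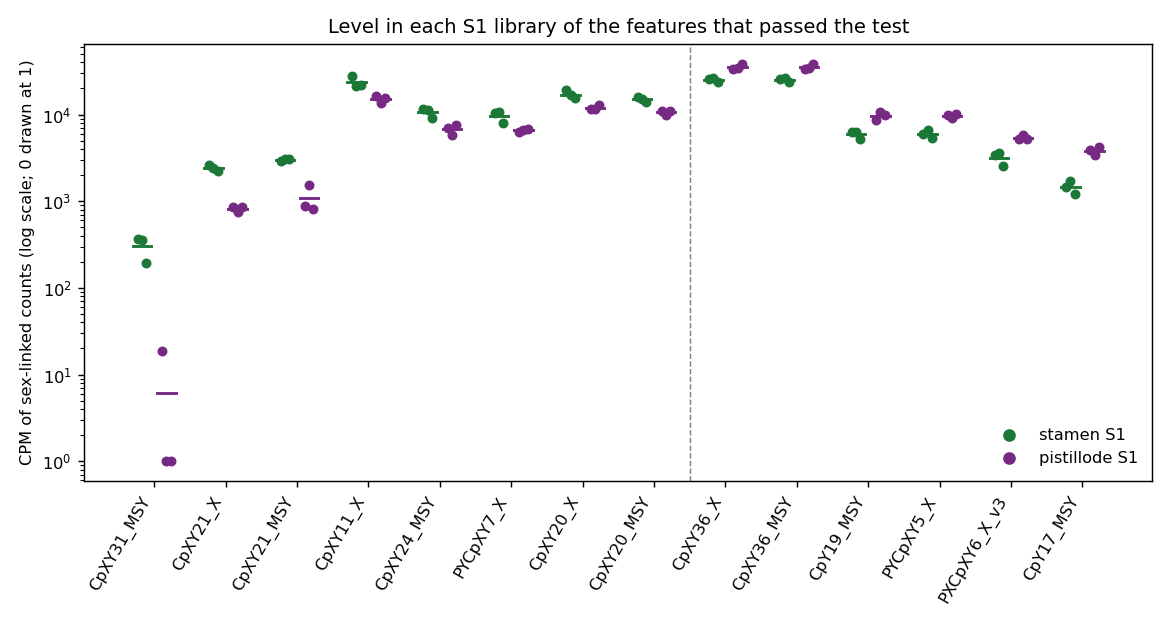
Level of each of the 14 features that passed, in CPM on a log axis, in the 3 stamen libraries (green, left of each pair) and the 3 pistillode libraries (purple); points are libraries, bars are group means, a level of 0 is drawn at 1, and the dashed line parts features higher in stamens from those lower. No feature has a stamen library inside the range of the pistillode libraries.

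The other features higher in stamens differed by 1.42 to 1.58-fold. CpXY20, a shared pair of long features (exons of 6610 bases on the X and 6605 on the Y), was higher in both copies. CpXY20_X (X, 4229043 to 4279173) was at 19060, 16640 and 15354 CPM in stamens, against 11609, 11534 and 12808 CPM in pistillodes, a log2 difference of 0.51 (SE 0.12, adjusted p = 0.00339). CpXY20_MSY (Y, 4657080 to 4700761) had means of 15028 ± 834 CPM in stamens and 10614 ± 546 CPM in pistillodes (SD, n = 3 each), a log2 difference of 0.50 (SE 0.12, adjusted p = 0.00402). Since reads of this pair are shared, the 2 values may describe the same transcripts.

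CpXY24_MSY (Y, 4958779 to 4967690), of a shared pair, was at 11741, 11328 and 9156 CPM in stamens, against 7025, 5859 and 7600 CPM in pistillodes. Its log2 difference was 0.65 (SE 0.15, adjusted p = 0.00335). CpXY24_X was at 3021 ± 152 CPM in stamens and 2086 ± 111 CPM in pistillodes (n = 3 each); its groups did not overlap either, but at 0.53 (SE 0.19, adjusted p = 0.0725) it did not pass, with an adjusted p of 0.0301 under the replicate block.

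Among separate pairs, 2 X copies were higher in stamens. CpXY11_X (X, 3496804 to 3499929), a single-exon feature and the ninth most abundant by CPM in these libraries, was at 27737, 21633 and 22217 CPM in stamens, against 16323, 13465 and 15397 CPM in pistillodes. Its log2 difference was 0.66 (SE 0.19, adjusted p = 0.0136). It was the least secure of the 14: the call was lost without stamen replicate 1 or 3, without pistillode replicate 2 or 3, and without the shared and partly shared pairs (highest adjusted p = 0.130). The Y copy CpXY11_MSY was at 19481 ± 1654 CPM in stamens and 16232 ± 1088 CPM in pistillodes (n = 3 each), a log2 difference of 0.26 (SE 0.25) that did not pass (adjusted p = 0.623, and 0.0177 under the replicate block).

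PYCpXY7_X (X, 2253158 to 2263261) was at 10499, 10678 and 7973 CPM in stamens, against 6304, 6691 and 6869 CPM in pistillodes, a log2 difference of 0.55 (SE 0.15, adjusted p = 0.00846). The call was lost without pistillode replicate 1, and at an adjusted p of 0.0825 without the shared and partly shared pairs. Its Y copy PYCpXY7_MSY was almost without counts, with 1, 0 and 0 in stamens and 4, 2 and 0 in pistillodes.

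The 6 features lower in stamens included both Y features without an X partner that passed. CpY17_MSY (Y, 3981090 to 3985922, 4 exons) had the largest difference in this direction. It was at 1474, 1715 and 1213 CPM in stamens, against 3882, 3395 and 4264 CPM in pistillodes. The groups were far apart, with a level 2.62-fold lower in stamens and a log2 difference of -1.39 (SE 0.32, adjusted p = 0.00335), and the call held under all 17 alternatives run. Despite its name, counts at CpY17_MSY do not require a Y: female S1 pistils were at 4371 ± 371 CPM (n = 3), above the S1 stamens.

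CpY19_MSY (Y, 4002488 to 4004000, 6 exons) lies close to CpY17_MSY on the Y and, unlike it, separates the sexes. It was at 6255, 6266 and 5222 CPM in stamens, against 8541, 10569 and 9838 CPM in pistillodes. The log2 difference was -0.71 (SE 0.17, adjusted p = 0.00339). The call was lost when shared and partly shared pairs were left out (adjusted p = 0.218). Their neighbours did not pass. CpY18_MSY, next before CpY17_MSY, had a log2 difference of 0.01 and CpY20_MSY, which lies between CpY17_MSY and CpY19_MSY, one of 0.15, each with a low count (14 to 58 per library). PXYCpXY3_MSY, next after CpY19_MSY, had one of 0.27 (adjusted p = 0.623).

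PXCpXY6_X_v3 (X, 2867715 to 2894506), the X copy of a partly shared pair, was at 3380, 3624 and 2529 CPM in stamens, against 5250, 5859 and 5178 CPM in pistillodes. It had the lowest adjusted p of all features, with a log2 difference of -0.77 (SE 0.15, adjusted p = 0.000617). Its Y copy PXCpXY6_MSY was at 3851 ± 897 CPM in stamens and 4552 ± 227 CPM in pistillodes (n = 3 each), overlapped between the organs and did not pass (log2 difference -0.24, SE 0.17, adjusted p = 0.510).

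PYCpXY5_X (X, 2130601 to 2130861), a single exon of 261 bases from a separate pair, was at 5897, 6556 and 5414 CPM in stamens, against 9982, 9071 and 10143 CPM in pistillodes, a log2 difference of -0.71 (SE 0.14, adjusted p = 0.00101). The call was lost without the shared and partly shared pairs (adjusted p = 0.166). The Y copy PYCpXY5_MSY leaned the other way without passing: it was at 1120 ± 212 CPM in stamens and 932 ± 73.4 CPM in pistillodes (n = 3 each), with overlapping libraries (log2 difference 0.27, SE 0.40, adjusted p = 0.758).

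CpXY36, the most abundant pair that differed, is a shared pair whose copies have 6 exons and 1164 exon bases each. CpXY36_X (X, 4948529 to 4951174) was at 25536, 26461 and 24007 CPM in stamens, against 33811, 34386 and 38471 CPM in pistillodes. The log2 difference was -0.49 (SE 0.14, adjusted p = 0.0136). CpXY36_MSY (Y, 7637840 to 7640485) had nearly the same counts, 2411, 1911 and 1621 against 2425, 1913 and 1623 at the X copy in stamens, and gave the same log2 difference of -0.49 (SE 0.15, adjusted p = 0.0259). The call of CpXY36_MSY was lost without pistillode replicate 3 and with a filter of at least 10 counts in each of 3 libraries (highest adjusted p = 0.0600).

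Of the 10 features highest by CPM, both copies of CpXY36 and CpXY11_X passed and the other 7 did not. CpXY47, a shared pair, was the highest: CpXY47_X was at 73914 ± 8149 CPM in stamens and 60475 ± 1761 CPM in pistillodes, and CpXY47_MSY at 73347 ± 8851 CPM in stamens and 60406 ± 834 CPM in pistillodes (n = 3 each). The libraries did not overlap, but at log2 differences of 0.29 (SE 0.12, adjusted p = 0.168) and 0.28 (SE 0.13, adjusted p = 0.234) neither passed. Under the replicate block their adjusted p was 3.0e-10 and 5.7e-10. CpXY12 and CpXY8, both separate pairs, had log2 differences of -0.10 (CpXY12_X), -0.15 (CpXY12_MSY), -0.12 (CpXY8_X) and -0.09 (CpXY8_MSY), and CpXY9_X of a separate pair one of 0.20, with adjusted p from 0.415 to 0.900. Under the replicate block CpXY9_X (adjusted p = 0.00224) and CpXY12_MSY (adjusted p = 0.0301) passed.

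Levels of different features can be set side by side only per length. Per kilobase of exon, CpXY16_MSY was highest among all features, at a mean of 82152 CPM per kb in stamens and 75947 CPM per kb in pistillodes. It was followed by its X copy, over exons of 148 and 237 bases. CpXY16 is a shared pair, so the order of its copies cannot be read. Of the 10 features highest by CPM, CpXY12_MSY led per kilobase, at 38723 ± 3519 CPM per kb in stamens and 42824 ± 4436 CPM per kb in pistillodes (n = 3 each), and CpXY47_X stood at 20064 ± 2212 CPM per kb in stamens and 16416 ± 478 CPM per kb in pistillodes. CpXY16_MSY and its X copy were picked out after their values were seen.

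Several features had organs that did not overlap and yet did not pass. Higher in stamens were CpXY18_MSY, with 8, 13 and 12 counts in stamens and 4, 2 and 1 in pistillodes (log2 difference 1.83, SE 0.91, adjusted p = 0.267), both copies of CpXY15 at 0.53 (CpXY15_MSY) and 0.50 (CpXY15_X), and CpXY34_MSY at 0.45. Lower in stamens were CpX1 (-0.69, SE 0.31, adjusted p = 0.194), CpXY19_MSY (-0.58), CpXY6_MSY (-0.43) and CpXY41_X (-0.40). Under the replicate block the adjusted p was 1.9e-05 for CpXY15_MSY, 5.0e-05 for CpXY15_X, 0.00668 for CpXY34_MSY, 0.000245 for CpX1, 0.000147 for CpXY6_MSY and 0.00357 for CpXY41_X.

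PCpY4_MSY was another feature lower in every stamen library, with a wide scatter. This single-exon Y feature (Y, 1326011 to 1326911) was at 3391, 941 and 5473 CPM in stamens, against 16619, 8372 and 8087 CPM in pistillodes. The groups did not overlap, but stamen replicate 2 lay far below the other stamen libraries and pistillode replicate 1 far above the other pistillode libraries. At -1.75 (SE 1.37, adjusted p = 0.562) it did not pass. This SE also carries the spread of other groups, which was uneven. PCpY4_MSY ran from 592 to 349583 CPM in S5 pistillodes and from 883 to 1232 CPM in S3 stamens (n = 3 each). Counts at PCpY4_MSY do not require a Y either: female S1 pistils were at 2023 ± 787 CPM (n = 3).

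The features that passed were not concentrated on 1 chromosome: 7 lay on the X and 7 on the Y. Of 67 X-located features tested, 4 rose, 3 fell and 60 did not pass, with a median log2 difference of 0.02. Of 72 Y-located features tested, 4 rose, 3 fell and 65 did not pass, with a median of 0.06. With 4 features at 0 in 1 organ set at their bound and 4 other features left out, 135 remained. The medians were then 0.04 over 64 X features, 0.05 over 71 Y features and 0.05 over all. Of the 11 pairs or single features they belong to, 3 pairs (CpXY20, CpXY21 and CpXY36) passed in both copies, 6 pairs in 1 copy, and CpY17_MSY and CpY19_MSY have no partner.

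The numbers were also small when counted by how well the copies could be told apart; over all 139 features 5.76% rose and 4.32% fell. Of 21 X copies of separate pairs, 2 rose and 1 fell (median log2 difference -0.04), and of 19 tested Y copies 1 rose and 0 fell (0.05). In partly shared pairs, 1 of 10 X copies rose and 1 fell (0.04), and 1 of 10 Y copies rose (0.11). In shared pairs, 1 of 27 X copies rose and 1 fell (0.10), and 2 of 26 Y copies rose and 1 fell (0.09). X features without a Y partner were mostly too low to test: 5 of 27 were tested and did not pass, CpX1 having the lowest adjusted p. Of 27 Y features without an X partner, 13 were tested, 0 rose and 2 fell (-0.06).

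Some of the features that passed lie near each other without forming a block. On the X, CpXY20_X and CpXY21_X fall between 4229043 and 4334142, in the coordinates of the files. No source used here names the genome build. CpXY19a_X (-0.32), which lies within the span of CpXY20_X, and PYCpXY28_X_v2 (0.12), next after CpXY21_X, did not pass. CpXY35_X, next to CpXY36_X, had a log2 difference of -0.30 (adjusted p = 0.577).

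Counts were split almost evenly between the chromosomes in both organs. Copies of shared pairs took 47.9 ± 0.595% of counts in stamens and 46.4 ± 0.691% in pistillodes (n = 3 each). Their reads can be counted at both copies, so the split is not a measure of expression per chromosome. Y-located features took 50.8, 50.8 and 50.8% of the counts in stamens, against 52.4, 51.8 and 51.6% in pistillodes. The mean was 50.8 ± 0.0374% in stamens and 51.9 ± 0.416% in pistillodes (SD, n = 3 each). The difference of -1.13 percentage points had an exact two-sided permutation p of 0.1, the smallest that 3 libraries against 3 can give. Without CpXY47_X, the feature with the highest level, the difference was -0.429 points. Its copy CpXY47_MSY, in the same shared pair, was kept, so this value is not free of that pair.

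Shares of the counts were also compared by class, a comparison added after the data were seen. Y features without an X partner took 2.60 ± 0.336% of stamen counts and 4.18 ± 0.830% of pistillode counts (n = 3 each). When PCpY4_MSY was left out it was 2.24 ± 0.120% and 2.97 ± 0.284%, with no overlap between the organs either way. The class holds CpY17_MSY and PCpY4_MSY, which also had counts in females, so part of its share can come from sequences outside the Y. Y copies of separate pairs took 16.2 ± 0.169% in stamens and 16.5 ± 0.378% in pistillodes, and their X copies 18.7 ± 0.321% in stamens and 18.3 ± 0.335% in pistillodes. Over the 8 classes compared, the lowest exact permutation p was 0.1, or 0.2 after Benjamini-Hochberg adjustment.

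Within separate pairs the ratio of Y to X counts shows whether the copies shift together, whatever the scaling between libraries. For 16 of the 21 separate pairs it could be fitted, and 0 of 16 (0%) passed in limma with Benjamini-Hochberg adjustment, with 5 at an unadjusted p under 0.05. The median log2 difference of the ratio, stamen minus pistillode, was -0.05. On the 6 libraries alone 5 pairs passed, and 0 did once the replicate number was added as a block.

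PXCpXY22, CpXY11 and PYCpXY5 shared the lowest adjusted p. For CpXY11, where the X copy was higher in stamens, the log2 ratio of Y to X was -0.39, -0.27 and -0.20 in stamens, against -0.12, 0.34 and 0.12 in pistillodes, a difference of -0.40 (SE 0.13, adjusted p = 0.0519). For PYCpXY5, where the X copy was lower in stamens, it was -2.14, -2.83 and -2.28 in stamens, against -3.28, -3.35 and -3.49 in pistillodes, a difference of 0.96 (SE 0.33, adjusted p = 0.0519). The X copy thus held most of the counts of PYCpXY5 in both organs.

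PXCpXY22 had a difference in ratio of -0.85 (SE 0.27, adjusted p = 0.0519), CpXY3 of 0.35 (SE 0.14) and CpXY29 of 0.36 (SE 0.14), the last 2 with an adjusted p of 0.0656. Without pistillode replicate 2 the difference of PXCpXY22 was -0.52 (adjusted p = 0.217). It passed without pistillode replicate 3 (-1.11, adjusted p = 0.0156), and CpXY11 passed without pistillode replicate 1 (-0.51, adjusted p = 0.0263). The libraries of the organs did not overlap in these 5 pairs, nor in CpXY5, CpXY14 and PYCpXY22, so that of the 16 fitted pairs 4 had a higher and 4 a lower ratio in stamens without overlap. In 12 of the 18 separate pairs with a fitted difference for both copies, the X and Y copies had log2 differences of the same sign, which is a description only, since the copies share libraries and scaling.

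**Figure D3:**
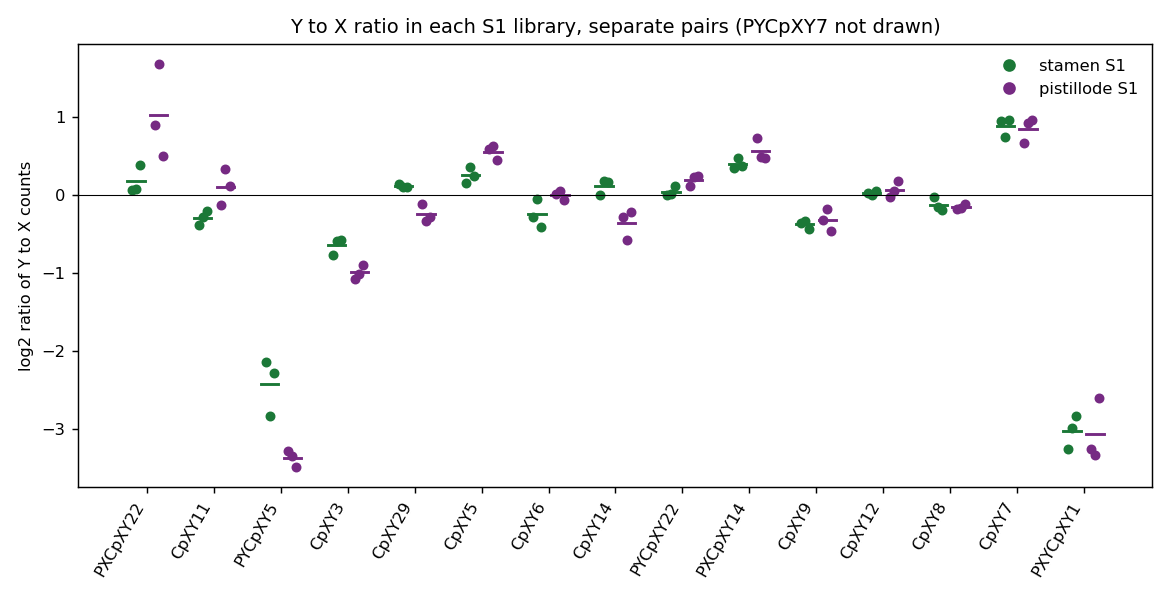
The log2 ratio of Y to X counts (pseudocount 0.5) in each stamen library (green, left) and pistillode library (purple, right) for 15 of the 16 separate pairs fitted; points are libraries and bars are group means. PYCpXY7, whose Y copy had at most 4 counts in a library, is not drawn. The ratio of PYCpXY5 is higher in all 3 stamen libraries and those of PXCpXY22 and CpXY11 are lower, with adjusted p = 0.0519 for each.

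The features that passed at S1 were then followed at later stages, in libraries whose levels did not enter the S1 difference. All stages came from the same fit, with the same filter and spread per feature. Calls at later stages are therefore not independent of those at S1. At S2, 12 of the 14 had the same sign as at S1 and 7 passed, all in the S1 direction. Of all 139 features, 9.35% passed at S2, 5.04% higher and 4.32% lower in stamens. At S3, 11 had the same sign. At S4 it was 8 and at S5 it was 4. The share of all features that passed was 28.8% at S3, 43.9% at S4 and 56.8% at S5 (24.5% higher and 32.4% lower in stamens). Of the 14, 2 passed at S5 in the S1 direction and 7 in the opposite one.

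The 7 that passed at both S1 and S2 were CpXY21_X, CpXY21_MSY, CpXY24_MSY and PYCpXY7_X, higher in stamens, and CpY17_MSY, CpY19_MSY and PYCpXY5_X, lower. CpXY21_X had a log2 difference of 2.25 at S2 (SE 0.39, adjusted p = 0.000155) and 3.16 at S3, of 0.08 at S4 (adjusted p = 0.888) and of 3.31 at S5. PYCpXY7_X had one of 0.77 at S2 (SE 0.17, adjusted p = 0.00193). CpY19_MSY was at -0.65 at S2 (SE 0.18, adjusted p = 0.0189). CpXY31_MSY stayed at 0 or 1 counts in sum over the pistillodes of each stage and had 37, 115, 37 and 1 counts in sum in stamens of S2, S3, S4 and S5. In S3 stamens it ranged from 0 to 1367 CPM between libraries.

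A feature can be called different at S1 from later stages only by a test of that change. The S1 difference minus the mean difference of S2 to S5 passed for 33 of 139 features (23.7%), with 25 above the later mean (18%) and 8 below it (5.76%). The median over all features was 0.23, which moved to 0.02 when scaling rested on X features alone and to 0.32 with table totals. On X-feature scaling 38 features passed, 21 above and 17 below the later mean. Of the 14 features that passed at S1, 9 passed this test too.

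**Figure D4:**
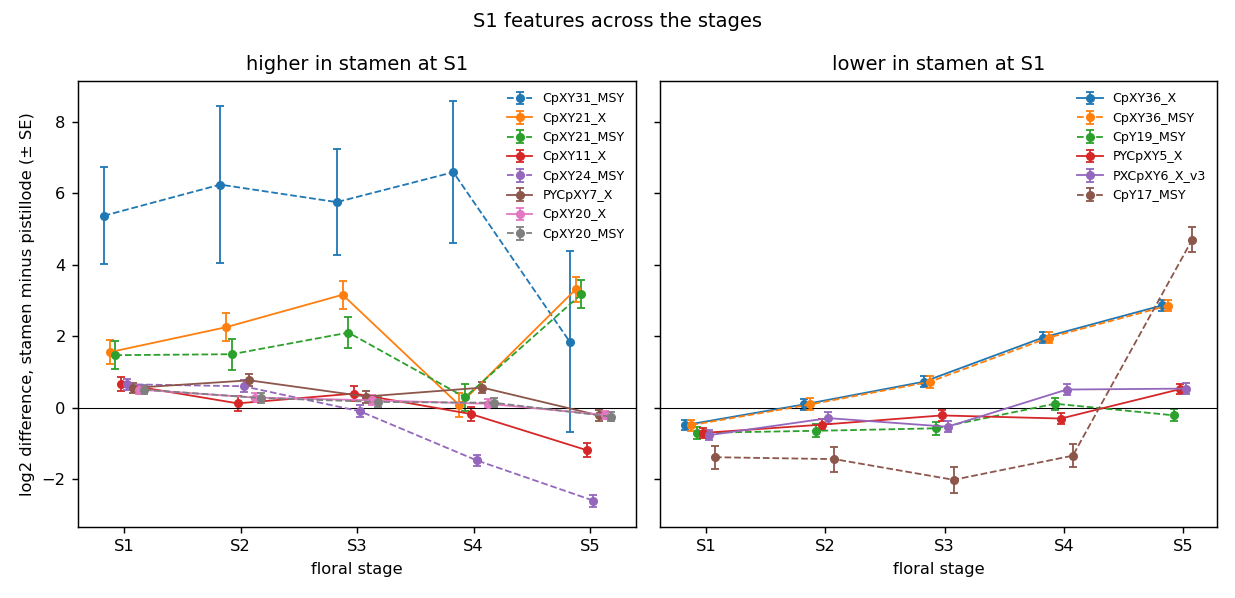
The log2 difference, stamen minus pistillode, with its SE at each stage from S1 to S5, for the 8 features higher in stamens at S1 (left) and the 6 lower (right); solid lines are X features and dashed lines Y features. Both copies of CpXY36 and CpY17_MSY start below 0 and end above it at S5, CpXY24_MSY and CpXY11_X do the reverse, and both copies of CpXY21 stay above 0.

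The sign of the difference turned for several features. CpXY36_X was lower in stamens at S1 and higher from S3, with log2 differences of 0.09 at S2 (adjusted p = 0.792), 0.73 at S3, 1.96 at S4 and 2.87 at S5 (SE 0.15). The S1 value minus the later mean was -1.90 (SE 0.16, adjusted p = 1.4e-12), and the level was 25335 ± 1239 CPM in S1 stamens, with male S0 buds at 40858 ± 1417 CPM (n = 3 each, not tested). CpY17_MSY kept its lower level in stamens to S4, at -1.44, -2.02 and -1.35 for S2, S3 and S4, and was higher in stamens at S5 (4.70, SE 0.36). Its S5 stamens averaged 115786 ± 78598 CPM and its S5 pistillodes 4455 ± 257 CPM (n = 3 each). The S5 stamen libraries ranged from 29965 to 184263 CPM, and pollen was at 402315 ± 67689 CPM of CpY17_MSY (n = 3, not tested).

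CpXY24_MSY moved the opposite way. It was higher in stamens at S1 and S2 (0.60 at S2, SE 0.17, adjusted p = 0.0189), close to 0 at S3 (-0.10) and lower at S4 (-1.48) and S5 (-2.60, SE 0.17). In S5 it was at 1227 ± 290 CPM in stamens and 7479 ± 659 CPM in pistillodes (n = 3 each). CpXY11_X, at 0.66 at S1, was at -1.20 at S5 (SE 0.20, adjusted p = 1.1e-06), and PXCpXY6_X_v3, at -0.77 at S1, was at 0.51 at S4 and 0.53 at S5 (SE 0.15 each). For CpXY31_MSY, both copies of CpXY21, PYCpXY7_X and CpY19_MSY the S1 difference was not shown to differ from the later mean (adjusted p from 0.156 to 0.761).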

How the data were processed

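RNA of dissected organs was sequenced and 6 libraries (3 S1 stamen, 3 S1 pistillode) were compared within 55. The deposited values are raw counts of fragments per feature: per the file headers, the authors ran featureCounts 2.0.0 over exons by gene name, in paired mode, counting multi-mapping reads at each place and with no strand option. The submitters' processing notes name HISAT2 2.0.5 and featureCounts 1.5.2, a version unlike that of the headers, with Trimmomatic 0.36, FastQC 0.11.5 and SAMtools 1.3.1. No source used here names the build. Tables cover sex-linked features only, so scaling rests on them.

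From these counts, edgeR 4.0.16 in R 4.3.3 fitted 1 quasi-likelihood model (TMM, filterByExpr, robust, prior count 0.125) with a coefficient for each of 19 groups, tested two-sided with Benjamini-Hochberg adjustment over 139 features and a threshold of 0.05. The fits were tested on simulated data. There the S1 test found 66% of 2-fold and 84% of 4-fold changes, so it missed part of such changes. Of its calls, 3.28% and 5.62% were false. Y to X ratios (pseudocount 0.5, a minimum of 20 counts per pair and library) were fitted over stamens and pistillodes of S1 to S5 with limma 3.58.1. The Y share was tested by exact permutation. The main tests had no replicate block. Fits with replicate numbers as a block, which treat the numbers as pairing the organs, were alternatives. Deviations of same-numbered stamen and pistillode libraries from their group means (log2(CPM + 0.5)) had correlations of 0.37, 0.14 and 0.11. Those of libraries with unlike numbers had correlations of -0.29 to 0.19, so a pairing by number was not clear.

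Named features were those that passed, the other copy of each pair, the 10 highest by mean CPM, and up to 5 per direction with the largest difference among those that did not pass, did not overlap and had a mean of at least 10 counts in the higher organ. Neighbours and pairs near the threshold were named after their values were seen. The members, lists and tests were chosen with earlier results of these data known. Alternatives were other size factors, table totals, TMM on X features, DESeq2 1.42.0, other filters, fewer samples in the fit, a replicate block, no shared or partly shared copies and each library left out in turn. Figures used Python 3.11.15, pandas 2.3.3 and matplotlib 3.10.9. Intervals and floors cover counting error only.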

Additional observations from a re-analysis of the deposited data

Results flagged for a closer look

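For 17 of the 36 named features the difference between stamen and pistillode at S1 differed from the mean difference of S2 to S5, in a direct test of that change (edgeR's quasi-likelihood test with Benjamini-Hochberg adjustment). Over all 139 features tested, 33 (23.7%) passed it. The values that follow are the log2 difference, stamen minus pistillode, at S1 minus its mean over S2 to S5. A difference from this mean can rest on late stages alone. CpY17_MSY was lower in stamens from S1 to S4 and turned at S5, and CpXY24_MSY was higher in stamens at both S1 and S2.

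The S1 difference was above the later mean for CpXY15_MSY by 2.44, CpXY15_X by 1.90, CpXY24_MSY by 1.55, CpXY34_MSY by 1.48 and CpXY24_X by 1.44. It was also above for CpXY11_X by 0.88, CpXY9_X by 0.69, CpXY47_X by 0.64, CpXY47_MSY by 0.63, CpXY20_MSY by 0.42 and CpXY20_X by 0.41. Of these 11 features, CpXY15_MSY was lower in stamens by S5, at 270 ± 52.7 CPM in stamens and 4418 ± 85.2 CPM in pistillodes (n = 3 each), and CpXY9_X stood at 12223 ± 2621 CPM in stamens and 25028 ± 2364 CPM in pistillodes.

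The S1 difference was below the later mean for CpXY18_MSY, at -3.27, for both copies of CpXY36, at -1.90 each, for CpY17_MSY, at -1.36, for PXCpXY6_X_v3, at -0.82, and for PYCpXY5_X, at -0.59. CpXY18_MSY passed at each of S2 to S5 with log2 differences of 4.16, 3.63, 6.59 and 6.02, and did not pass at S1.

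The call was lost for CpXY20_X under 9 and for CpXY20_MSY under 8 of 14 alternatives, among them each S1 library left out in turn and scaling on X features. It was lost for CpXY18_MSY under 5 of 14, among them under a replicate block and without stamen replicate 1 and without pistillode replicate 1 or 2. For CpY17_MSY it was lost in the fit of stamens and pistillodes that had stage and replicate as a block (adjusted p = 0.0793), and for PYCpXY5_X, CpXY9_X and CpXY11_X without the shared and partly shared pairs.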

How the results depend on the processing

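The 14 features kept their direction under every alternative in which they were fitted. The count was 14 with other size factors, table totals, X-feature scaling or no filter, 15 with DESeq2 or without pollen, 16 with stamens and pistillodes alone, and 19 (14 higher, 5 lower in stamens) with at least 10 counts in each of 3 libraries. It was 39 (23 higher, 16 lower) on the 6 libraries alone and 38 (22 higher, 16 lower) with the replicate block, and 2 of 65 without shared and partly shared copies, which leaves fewer features to scale and share spread over. Leaving out 1 library gave 10 to 14. The change between S1 and later stages passed for 31 to 43 features, 34 with the replicate block and 31 to 36 with a library left out, but for 3 of 65 without shared and partly shared copies. The Y share difference was -1.30 to -0.896 points with a library left out, -1.04 in separate pairs (exact permutation p = 0.2), -2.69 without shared and partly shared pairs, and paired by replicate number its exact permutation p was 0.25, the smallest possible. The Y to X ratio passed in 3 pairs with a pseudocount of 1, in 5 on the 6 libraries alone, in 0 with the replicate block and in 0 to 1 with a library left out. Of features that did not pass, CpXY8_X (0.023), CpXY12_X (0.0405), CpXY12_MSY (0.000464) and CpXY8_MSY (0.0519) turned positive without shared and partly shared copies, and CpXY8_MSY (0.0074) with the stricter filter; the cause was not tested. Beyond the calls given in the report, the fit of the 6 libraries with the replicate block changed no call at S1 of a named feature. Features under about 10 counts per library were limited by depth.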
